A study of Mus musculus with 16 samples.

Results

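The sterol and fatty acid synthesis genes were followed in activated mouse CD4+ T cells. They were 36 named genes, chosen by function, with earlier results of these data known. They comprised 18 enzymes of sterol synthesis, 6 genes of the SREBP pathway and of sterol transport, 10 genes of fatty acid synthesis and desaturation, and 2 sterol efflux transporters. Each gene was read from 1 Affymetrix probe set, namely the one with the highest mean log2 intensity among those that the platform annotation gives to that gene alone. All members but Acat2 had such a probe set, and all 35 measured members passed the filter on low values, out of 13007 genes tested on the arrays.

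The arrays came from 2 genotypes and 4 cytokine conditions, with 2 arrays in each of the 8 groups. Cells labelled CD4 Cre; STAT3floxed are called STAT3-deficient here, and cells labelled STAT3floxed are called WT. Both genotypes carried the floxed Stat3 alleles, and the deficient cells also carried a Cre recombinase under CD4 control, which acts in T lineage cells. The cells were naive by their sort (CD4+, CD44-, CD62L+), and culture with CD3 and CD28 antibodies lasted 3 days. Culture was in medium, in IL-6 (10 ug/ml), in TGFb (2.5 ug/ml) or in both cytokines, with the dose units as the labels give them. IL-6 signals through STAT3, TGFb does not, and the labels name the combination as the Th17-polarizing condition. Age and strain are not stated in the labels. The labels do not say what the replicates came from, so each p-value measures the spread among these arrays and no more. In such bulk samples, fewer cells of a type and less RNA per cell cannot be told apart.

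Cholesterol is made from acetyl-CoA through mevalonate, farnesyl diphosphate, squalene and lanosterol. The transcription factors SREBP2 (gene Srebf2) and SREBP1 (Srebf1) switch on the enzymes of this route and of fatty acid synthesis. SCAP carries them out of the endoplasmic reticulum when sterols are low, and INSIG proteins hold them back when sterols are ample. Activated T cells switch this programme on as they grow and divide. Sterol surplus is exported by the transporters ABCA1 and ABCG1, which liver X receptors induce.

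The arrays were checked against their labels first. Stat3 read 8.40 to 10.46 (log2) on the STAT3-deficient arrays and 10.22 to 12.18 on the WT arrays. The 10.46 was read on deficient TGFb replicate 2, above WT medium replicate 1 (10.22). The other deficient arrays read 8.40 to 9.56. The array labelled STAT3-deficient, TGFb, replicate 1 stood apart. It read Il17a, the Th17 cytokine gene, at 9.55, against 6.07 to 6.39 on the other TGFb-alone arrays and 6.29 and 6.51 on the STAT3-deficient arrays with both cytokines. It correlated with its own replicate at 0.906 across all genes, below the 0.939 to 0.981 of the other replicate pairs, and best with the STAT3-deficient array of both cytokines with the same number (0.957). The labels were kept, and whether those of these 2 arrays were exchanged was not tested. Foxp3, which TGFb is known to induce, read 9.99 and 9.98 on the TGFb-alone replicate 2 arrays of WT and deficient cells, but 4.81 and 7.96 on the replicate 1 arrays. All replicate 1 arrays read as female and all replicate 2 arrays as male material by Xist and Eif2s3y. The difference between 5' and 3' control probe sets of Actb, a measure of RNA integrity, was -0.50 to -0.11 on replicate 1 and -1.71 to -0.88 on replicate 2. T cell markers had a median of 11.95. The CD8, B cell, dendritic, stromal and adipocyte markers stayed under log2 8 on every array, as did 5 of 6 myeloid markers (Mpeg1 reached 8.15) and 1 of 2 NK markers (Klrd1 reached 12.85).

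Promoter sequences are shown for 5 members named in the findings that follow, of which Hmgcs1 and Insig1 were called in no comparison. No sequence was found for Abcg1. Hmgcs1 encodes HMG-CoA synthase at the entry to the mevalonate route, and Insig1 encodes the sterol-sensing brake on SREBP. Ebp and Sc5d encode enzymes of the late sterol steps, and Acss2 encodes a cytosolic acetyl-CoA synthetase. Each sequence is the 250 bases before the annotated start site, 5' to 3' in the gene's direction, from RefSeq on GRCm38.p6. Capitals mark letters that match TCACNCCAC (a form of the sterol response element), CCAAT (the NF-Y box) or CACGTG (the E-box), on either strand, so that a CCAAT match on the other strand reads ATTGG. The stretches lie at chr13:119690101-119690350 on the plus strand (Hmgcs1), chr5:28071162-28071411 on the plus strand (Insig1), chrX:8193513-8193762 on the minus strand (Ebp), chr9:42264301-42264550 on the minus strand (Sc5d) and chr2:155517793-155518042 on the plus strand (Acss2).
Hmgcs1: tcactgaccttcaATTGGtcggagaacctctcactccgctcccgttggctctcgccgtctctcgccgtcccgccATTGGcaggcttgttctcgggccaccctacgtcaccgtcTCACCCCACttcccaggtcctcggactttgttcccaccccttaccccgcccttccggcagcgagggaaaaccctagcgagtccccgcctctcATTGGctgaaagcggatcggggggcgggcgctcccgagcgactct
Insig1: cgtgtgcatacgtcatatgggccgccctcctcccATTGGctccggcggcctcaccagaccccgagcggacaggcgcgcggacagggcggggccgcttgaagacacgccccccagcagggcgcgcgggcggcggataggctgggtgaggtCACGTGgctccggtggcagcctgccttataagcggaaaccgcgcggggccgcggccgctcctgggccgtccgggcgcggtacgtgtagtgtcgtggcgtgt
Ebp: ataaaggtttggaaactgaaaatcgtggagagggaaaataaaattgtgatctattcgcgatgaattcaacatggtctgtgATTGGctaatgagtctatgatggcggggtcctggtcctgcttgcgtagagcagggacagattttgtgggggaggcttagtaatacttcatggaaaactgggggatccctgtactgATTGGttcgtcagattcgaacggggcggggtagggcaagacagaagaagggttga
Sc5d: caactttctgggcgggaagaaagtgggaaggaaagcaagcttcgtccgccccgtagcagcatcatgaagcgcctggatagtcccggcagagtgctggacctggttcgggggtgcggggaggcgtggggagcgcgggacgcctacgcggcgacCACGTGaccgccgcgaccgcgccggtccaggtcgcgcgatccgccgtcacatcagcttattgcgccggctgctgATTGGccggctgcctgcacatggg
Acss2: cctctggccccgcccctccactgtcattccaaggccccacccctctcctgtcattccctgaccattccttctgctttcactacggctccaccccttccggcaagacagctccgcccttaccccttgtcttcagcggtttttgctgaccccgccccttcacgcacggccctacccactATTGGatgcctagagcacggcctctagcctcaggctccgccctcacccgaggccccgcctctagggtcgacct

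The Hmgcs1 stretch held the sterol response element form at position -137 from the start site, and 3 CCAAT matches at -237, -176 and -45. Insig1 and Sc5d each held 1 E-box, at -101 and -98, and 1 CCAAT match. The Ebp stretch held 2 CCAAT matches, at -170 and -55, and Acss2 held 1 at -73. RefSeq windows of 250 bases before and 50 after the start were found for 28 of the 36 members (36 windows). CCAAT was present in 23 of these windows (63.9%), against 37.4% of all 32851 windows of the same length. The E-box was present in 8 windows (22.2%, against 7.15%), from Hsd17b7, Abca1, Insig1, Dhcr7, Sc5d, Elovl5 and Scap. The 2 Scap windows overlap and hold the same match. By gene, the E-box was present in 7 of the 28 members, against 8.09% of all genes with a window. CCAAT was present in 22 of the 28, against 41.1%. The sterol response element form was present in 1 window (2.78%, against 1.24%). A match describes the letters only, and its absence says nothing of the factor.

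Across the 16 arrays, the members varied most between the replicate numbers of some groups. In WT cells in medium, 17 of 35 members were lower by log2 1 or more on replicate 1 than on replicate 2, against a background of 6.17% of all genes. In STAT3-deficient cells 10 were lower by that much in medium (background 4.66%), 14 in TGFb (10.7%) and 6 in IL-6 (4.5%). The count was 1 in WT cells in IL-6 (7.29%), 0 in WT cells in TGFb (2.07%), 2 in WT cells with both cytokines (1.02%) and 0 in STAT3-deficient cells with both (2.25%). The median member difference, replicate 1 minus replicate 2, was -0.98 in WT medium, -0.62 in deficient medium, -0.82 in deficient TGFb and -0.40 in deficient IL-6. In the other groups it was 0.24 in WT IL-6, 0.03 in WT TGFb, 0.29 in WT cells with both cytokines and -0.07 in deficient cells with both.

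**Figure D1:**
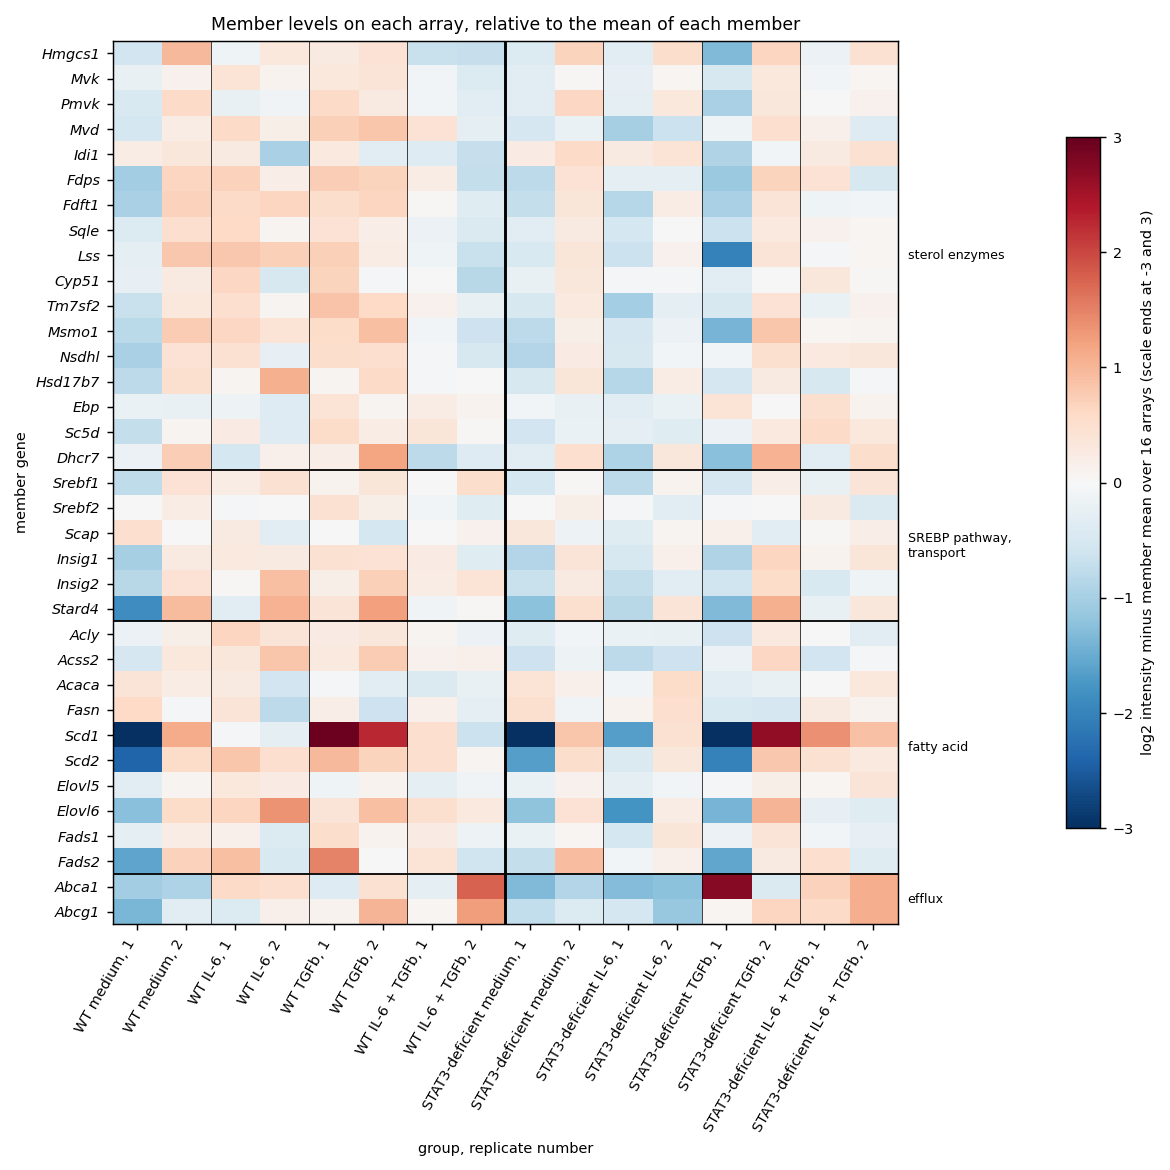
Heat map of the 35 measured members (rows, grouped by role) on the 16 arrays (columns, by group and replicate number). Colour is log2 intensity minus that member's mean over the arrays, with the scale ending at -3 and 3. Blue prevails in the replicate 1 columns of WT medium and of deficient medium, TGFb and IL-6, and the efflux pair at the foot follows another pattern.

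Scd1, a fatty acid desaturase gene whose product makes monounsaturated fatty acids, had the widest split of the members in medium of both genotypes and in deficient TGFb and deficient IL-6. It read 6.04 and 10.54 in WT medium, 6.27 and 10.28 in deficient medium, 5.64 and 12.09 in deficient TGFb, and 7.79 and 9.89 in deficient IL-6, replicate 1 first in each pair. In the other groups it read 12.39 and 11.70 in WT TGFb, 9.38 and 9.14 in WT IL-6, 9.95 and 8.78 in WT cells with both cytokines, and 10.81 and 10.32 in deficient cells with both. Replicate 1 was thus far below replicate 2 in 4 groups, all of them either medium or STAT3-deficient, and above it in the other 4. The other Scd1 probe set was also lower on replicate 1 in those first 4 groups, by differences of -5.24 to -1.77. In WT IL-6 and deficient cells with both it differed by -0.41 and -0.18, and in WT TGFb and WT cells with both by 0.14 and 0.46.

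Stard4, which encodes a carrier of cholesterol between membranes, was lower on replicate 1 in all 8 groups by its brightest probe set. It read 7.80 and 10.61 in WT medium, 9.34 and 10.70 in WT IL-6, 10.05 and 10.90 in WT TGFb, and 9.56 and 9.69 in WT cells with both cytokines. In deficient cells it read 8.43 and 10.14 in medium, 8.84 and 10.05 in IL-6, 8.34 and 10.72 in TGFb, and 9.45 and 9.99 with both. On this probe set its gap was thus widest in WT medium and narrowest in WT cells with both cytokines. The other Stard4 probe sets, at mean levels of 9.38 and 9.52, differed by -1.34 and -1.07 in WT medium. With both cytokines they differed by 0.05 and 0.39 in WT cells and by 0.09 and -0.01 in deficient cells. In the remaining groups they were lower on replicate 1. Insig1 read 9.0 and 10.27 in WT medium, 9.10 and 10.38 in deficient medium, and 9.08 and 10.65 in deficient TGFb. Among the 17 measured sterol enzymes, 16 were lower on replicate 1 in WT medium, in deficient medium and in deficient TGFb, and 14 in deficient IL-6. In WT IL-6 and WT cells with both cytokines 5 and 2 were lower, with medians of 0.31 and 0.33, and in WT TGFb and deficient cells with both 7 and 11 were lower. The 16 measured proliferation genes did not show this split in medium, where their median difference was 0.04 in WT and 0.00 in deficient cells. In deficient TGFb their median was -0.29, with 16 of 16 below 0. In deficient IL-6 it was -0.41, with 14 below 0, and in WT IL-6 it was 0.86, with 0 below 0. It was 0.30 in WT TGFb, -0.10 in WT cells with both cytokines and 0.07 in deficient cells with both. The part of proliferation in the split was not tested. The replicate numbers also differed in sex-linked genes and in the Actb measure on all 8 pairs, and the part of either in the split was not tested.

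**Figure D2:**
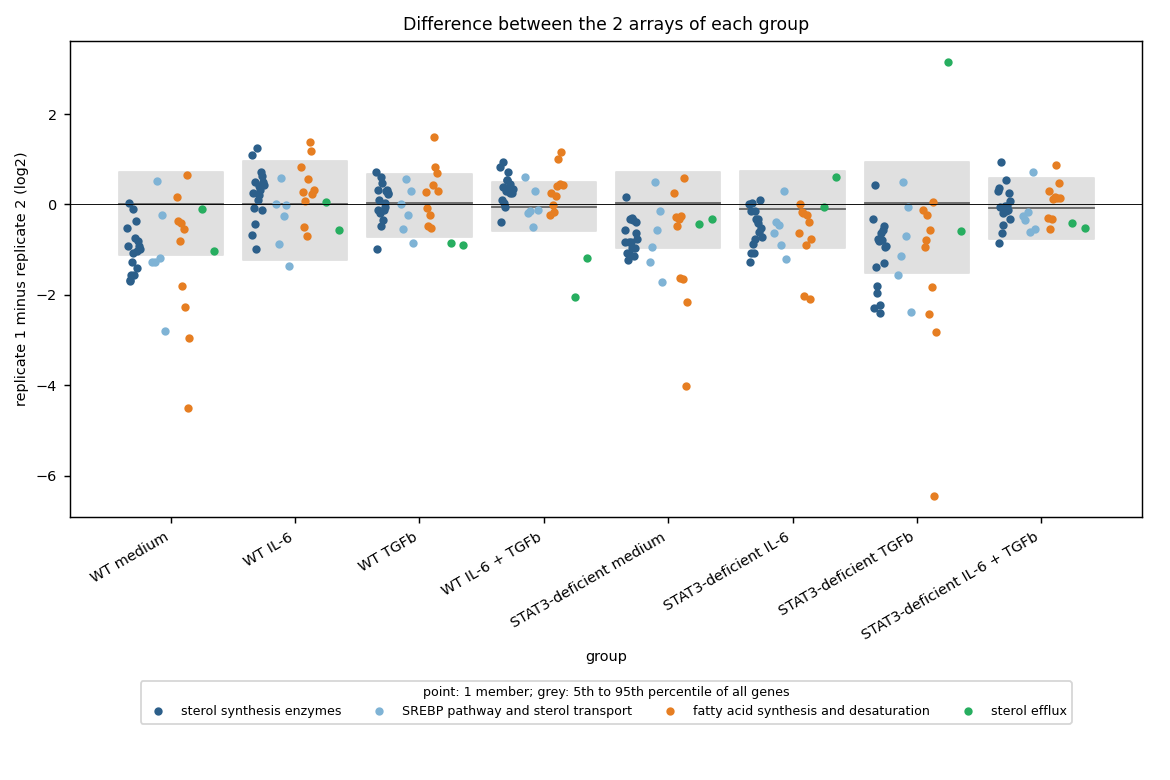
Replicate 1 minus replicate 2 (log2, vertical axis) for each measured member in the 8 groups (horizontal axis), coloured by role. Grey boxes span the 5th to 95th percentile of all genes tested, and the line is their median. The lowest point is Scd1 in deficient TGFb, at -6.44, and members fall below the box mainly in WT medium and in deficient medium, TGFb and IL-6.

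TGFb was compared with its absence over 8 arrays each, as the mean over genotype and IL-6. The efflux transporter gene Abcg1 and the sterol isomerase gene Ebp rose, by 1.20 and 0.45 on the log2 scale, and no member fell. These 2 of 35 members stand against a background of 9.25% of all genes called in this comparison (limma, Benjamini-Hochberg adjusted p). At an unadjusted p under 0.05 there were 6 members (17.1%), against 23.9% of all genes. The median difference was 0.08 over the members and -0.01 over all genes. By role it was 0.01 over the sterol enzymes, 0.22 over the SREBP pathway and transport genes, 0.10 over the fatty acid genes and 1.30 over the efflux pair.

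Abcg1 read 7.70 to 9.22 (median 8.60) without TGFb and 9.13 to 10.32 (median 9.69) with it. The ranges overlapped slightly, with 5 of the 8 TGFb arrays above the highest array without it. The change of 1.20 (SE 0.24, 2.29-fold, adjusted p = 0.0111) stayed past the threshold in all 24 alternative fits. Its other probe set gave a difference of 0.72. In single groups Abcg1 averaged 8.22 ± 0.73 (SD, n = 2) in WT medium and 9.63 ± 0.64 in WT TGFb, and 8.50 ± 0.22 and 9.43 ± 0.42 in the deficient counterparts.

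Ebp encodes the enzyme that shifts the sterol double bond late in the route. It read 10.39 to 10.71 (median 10.57) without TGFb and 10.77 to 11.25 (median 10.95) with it. All 8 TGFb arrays lay above all 8 others, which 1.05% of all genes did. The change was 0.45 (SE 0.11, 1.37-fold, adjusted p = 0.0235). It missed the threshold when 1 of 5 arrays was left out, with adjusted p 0.0507 to 0.0642, and without both STAT3-deficient replicate 1 arrays that held TGFb (0.085). Those 5 arrays were WT medium, WT TGFb, WT both and deficient both, each replicate 1, and deficient medium replicate 2.

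Abca1 and Sc5d missed the threshold in this fit and passed with the replicate number as a block, which raised the count to 4 against a background of 16.3%. Abca1 encodes the transporter that loads cholesterol onto lipoproteins. It read 5.81 to 7.69 (median 6.14) without TGFb and 6.70 to 9.84 (median 7.69) with it, a change of 1.40 (SE 0.42, adjusted p = 0.0592, and 0.0459 with the block). Its highest value, 9.84, came from the array labelled STAT3-deficient, TGFb, replicate 1. Without that array the change was 1.01 (adjusted p = 0.0472) and 4 members passed. Its 2 other probe sets, with mean levels of 4.61 and 3.91, gave differences of 0.31 and -0.10.

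Sc5d encodes the sterol desaturase that acts after Ebp. It read 9.82 to 10.77 (median 10.22) without TGFb and 10.35 to 11.10 (median 10.84) with it, with 5 of 8 TGFb arrays above the highest other array. The change was 0.54 (SE 0.15, adjusted p = 0.0503, and 0.0366 with the block), and it passed in 4 of the 8 alternatives that left out no single array. Among the members that missed the threshold, the highest difference was that of Scd1 (1.54, SE 0.97, adjusted p = 0.378) and the lowest that of the lanosterol synthase gene Lss (-0.37, adjusted p = 0.546). Acaca, the acetyl-CoA carboxylase gene, differed by -0.33 (adjusted p = 0.194) and was called lower without WT IL-6 replicate 2 (-0.43, adjusted p = 0.0482). The SREBP genes differed little, with 0.22 for Srebf1 and 0.00 for Srebf2.

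**Figure D3:**
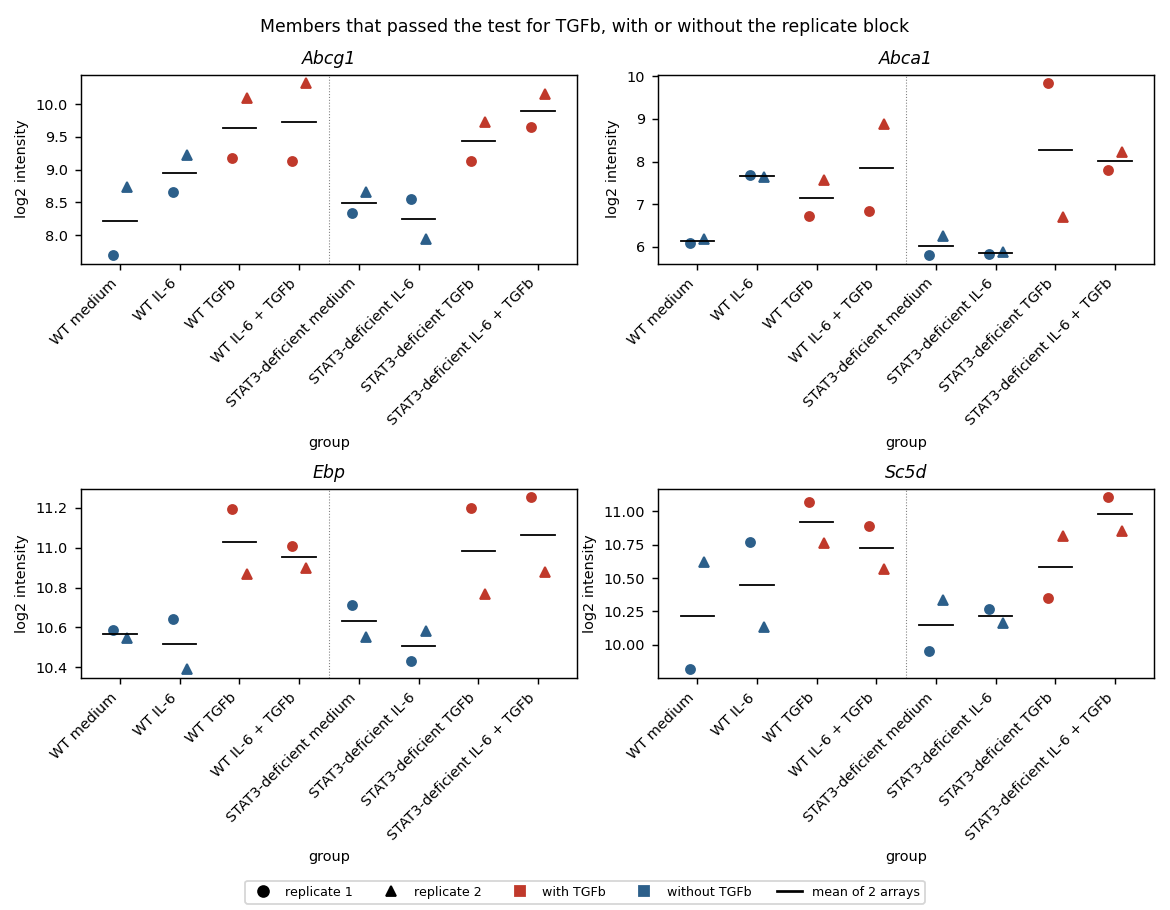
Log2 intensity (vertical axis) of Abcg1, Abca1, Ebp and Sc5d on each array by group, with red for TGFb and blue for its absence. Circles are replicate 1, triangles replicate 2, and bars the mean of 2 arrays. Every red Ebp point lies above every blue one, and the highest Abca1 point (9.84) is replicate 1 of deficient TGFb.

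Beside these changes, the NK marker Klrd1 read 5.0 to 7.36 without TGFb and 6.25 to 12.85 with it, while the T cell list summed to 14.81 to 15.31 and 14.80 to 15.39. The other NK marker measured stayed under log2 8, and the part of Klrd1-expressing cells in these changes was not tested. Of the genes around the efflux pair, 5 of 7 listed liver X receptor genes and targets were tested and 1 rose. That was Pltp, the phospholipid transfer protein gene, by 0.77 (adjusted p = 0.0412). Of 11 other sterol handling genes tested, 1 rose, Npc1, which moves cholesterol out of lysosomes. Npc1 read 6.43 to 8.48 without TGFb and 8.0 to 8.78 with it, a change of 1.01 (SE 0.14, adjusted p = 0.0013). Mid1ip1, a partner of acetyl-CoA carboxylase, fell by 0.60 (adjusted p = 0.0457) as 1 of 14 other fatty acid synthesis genes. Decr1, of fatty acid oxidation, fell by 0.74 (adjusted p = 0.0259) as 1 of 11, and the cell cycle kinase gene Cdk1 fell by 0.48 (adjusted p = 0.029) as 1 of 16 proliferation genes. Each was the only gene called in its list, against 9.25% of all genes called in this comparison.

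The addition of IL-6 to TGFb was examined as the change from TGFb alone to the Th17-polarizing mixture, in a comparison added after the values were seen. In WT cells the mean of all 17 measured sterol enzymes was lower with IL-6, with a median difference of -0.74 against -0.05 over all genes. None of these differences passed the test. Over all members, 0 of 35 were called by limma (background 0.507%), the lowest adjusted p was 0.689, and 1 member was lower at an unadjusted p under 0.05, against 7.23% of all genes.

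Dhcr7, the last enzyme of the Kandutsch-Russell route, read 9.23 and 10.21 in WT TGFb and 8.24 and 8.64 with IL-6 added, a difference of -1.28 (SE 0.70, adjusted p = 0.831). Hmgcs1 read 11.88 and 12.06, and then 10.95 and 10.92, a difference of -1.03 (SE 0.64, adjusted p = 0.918). Msmo1, a sterol methyl oxidase gene, read 10.99 and 11.32, and then 10.34 and 9.81. For each of these 3 genes both arrays with IL-6 lay below both without it, and the share of all genes that do so was not counted. Within replicate numbers, 16 of 17 enzymes were lower in both pairs, against 37.9% of all genes, and the exception was Ebp (-0.19 and 0.03). The other Hmgcs1 probe sets differed by -0.97 to -1.07.

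Outside the enzymes the pattern varied by role. Srebf2 read 10.15 and 9.86 in WT TGFb and 9.62 and 9.33 with IL-6 added (difference -0.53), whereas Srebf1 differed by 0.03. Scd1 differed by -2.67 (SE 1.94, adjusted p = 0.973). For the efflux pair the differences were 0.71 (Abca1) and 0.09 (Abcg1). Of 10 fatty acid members, 9 were below 0 with a median of -0.30. Beside the enzymes, all 16 proliferation genes were lower with IL-6, with a median of -0.34, and 11 of them were lower in both pairs. The part of proliferation in the enzymes' difference was not tested.

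In STAT3-deficient cells the same addition gave a median of 0.21 over the enzymes, with 14 of 17 above 0, and 0 of 35 members called (limma, background 0%, lowest adjusted p 1.0). At an unadjusted p under 0.05 there was 1 member (2.86%, against 3.64% of all genes). The pairs disagreed. The enzymes' median was 0.78 in replicate 1 and -0.25 in replicate 2. Replicate 1 sets the array with the high Il17a against the array it correlated best with. No enzyme was lower in both pairs (24.1% of all genes were) and 4 were higher in both (23.4%). The difference between the genotypes, tested as an interaction, was above 0 for 17 of 17 enzymes with a median of 0.94. It was called for 0 of 35 members (limma, background 0.0769%, lowest adjusted p 0.689), with 1 member at an unadjusted p under 0.05 (2.86%, against 6.26% of all genes). All 4 groups with TGFb enter it, the array with the high Il17a among them. In replicate 2 alone the enzymes' medians were -0.82 in WT and -0.25 in deficient cells. The deficient TGFb array of replicate 2 is the one that read Stat3 at 10.46.

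**Figure D4:**
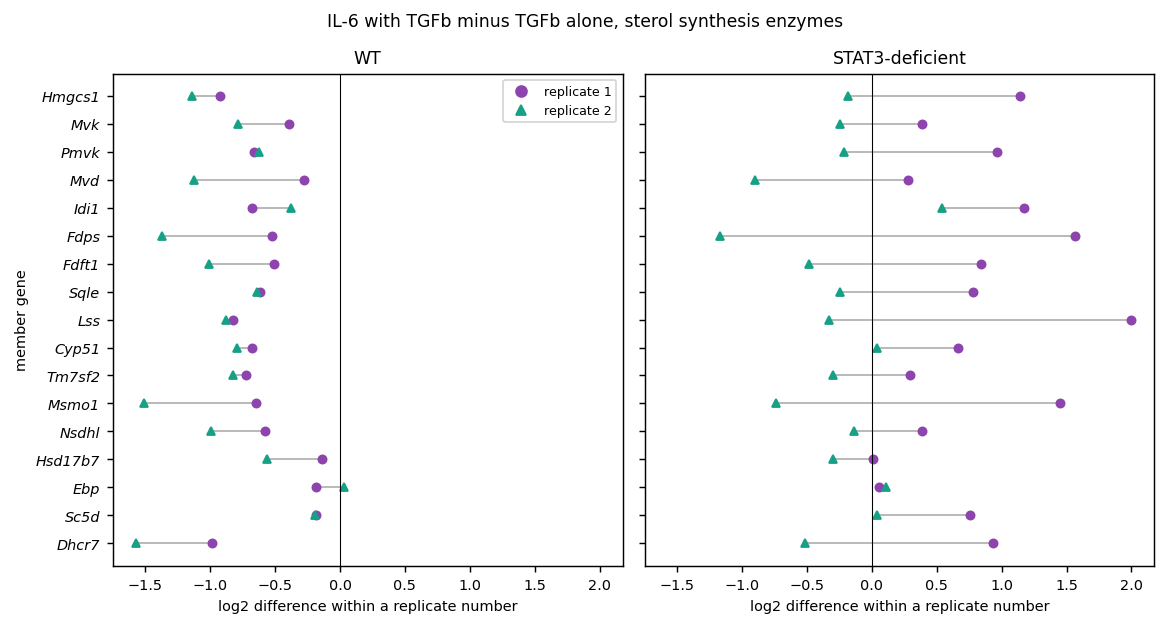
IL-6 with TGFb minus TGFb alone (log2, horizontal axis) for the 17 measured sterol enzymes, in WT (left) and STAT3-deficient cells (right). Each line joins the difference within replicate 1 (circle) and within replicate 2 (triangle). In WT all points but 1 lie below 0, and in deficient cells replicate 1 lies mostly above 0 and replicate 2 mostly below it.

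STAT3-deficient cells were compared with WT cells under IL-6, which signals through STAT3. IL-6 was also present in the condition with both cytokines, which is given further below. The means of 30 of 35 members were lower in deficient cells, with a median of -0.46 against -0.03 over all genes, but none passed the test (limma, 0 called, background 3.29%). At an unadjusted p under 0.05, 4 members were lower (11.4%, against 21.7% of all genes). Within replicate numbers, 20 members were lower in both pairs (34.1% of all genes were) and none was higher in both (27.1%). The median was -0.77 in replicate 1 and -0.16 in replicate 2. By role, 15 of 17 sterol enzymes (median -0.39), 6 of 6 SREBP pathway and transport genes (-0.51), 7 of 10 fatty acid genes (-0.44) and both efflux genes (-1.25) were below 0.

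With the replicate number as a block, 4 members fell, against a background of 11.5% in both directions and 9.08% lower. Acss2, which makes acetyl-CoA from acetate, read 8.45 and 8.94 in WT IL-6 and 7.32 and 7.49 in deficient IL-6. Both deficient arrays lay below both WT arrays, with a difference of -1.29 (SE 0.35, adjusted p = 0.069, and 0.00679 with the block). The share of all genes that part in this way was not counted, here or for Mvd and Abca1 below. Acss2 had further probe sets. Its other 2 probe sets differed by -1.73 and, at a mean level of 5.48, by 0.11. With the Actb measure added to the block, Acss2 was the 1 member called (adjusted p = 0.0447).

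Mvd, the mevalonate diphosphate decarboxylase gene, read 9.63 and 9.22 in WT IL-6 and 8.07 and 8.40 in deficient IL-6. The arrays did not overlap, with a difference of -1.19 (SE 0.34, adjusted p = 0.0775, and 0.0473 with the block). Insig2, the second INSIG gene, read 8.65 and 9.52, and 7.89 and 8.29, a difference of -0.99 (SE 0.50, adjusted p = 0.272, and 0.0371 with the block). Hsd17b7, a sterol ketoreductase gene, read 8.74 and 9.72, and 7.80 and 8.86, a difference of -0.90 (SE 0.51, adjusted p = 0.326, and 0.0492 with the block). The Hsd17b7 groups overlapped, and its 3 other probe sets differed by -0.61, -0.05 and -0.03.

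The efflux gene Abca1 read 7.69 and 7.64 in WT IL-6 and 5.83 and 5.88 in deficient IL-6, a difference of -1.81 (SE 0.83, adjusted p = 0.236) with no overlap. In WT medium it read 6.09 and 6.19. Abca1 was thus higher on the WT arrays with IL-6 than on the other 6 arrays without TGFb. The 2 other Abca1 probe sets, at mean levels of 4.61 and 3.91, differed by 0.34 and -0.17 between deficient and WT IL-6. Elovl6, a fatty acid elongase gene, read 10.12 and 10.83 in WT IL-6 and 7.69 and 9.71 in deficient IL-6, a difference of -1.78 (SE 0.87, adjusted p = 0.264). Members in the opposite direction included Idi1 (0.68) and Fasn (0.50), the isopentenyl isomerase and fatty acid synthase genes, and neither passed.

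Beside the members, Npc1 fell by 1.70 in deficient cells under IL-6 (SE 0.27, adjusted p = 0.0155). It read 8.13 and 8.48 in WT IL-6 and 6.43 and 6.78 in deficient IL-6. Of 11 fatty acid oxidation genes tested, 10 were below 0 with a median of -0.51, and 2 fell, Acadm by 0.91 (adjusted p = 0.0274) and Etfdh by 0.80 (adjusted p = 0.0315). These calls stand against 3.29% of all genes called in this comparison. The proliferation genes had a median of -0.38 in replicate 1 and 0.77 in replicate 2. The B cell list summed to 7.91 to 8.14 in deficient and 7.03 to 7.13 in WT IL-6, with each of its markers under log2 8 on every array. Other lists also parted without overlap: the NK list summed to 7.38 to 7.75 in deficient and 6.36 to 7.10 in WT IL-6, the adipocyte list to 6.27 to 6.63 and 5.78 to 5.91, and the stromal list to 6.39 to 6.55 and 6.07 to 6.15. The CD8 list was lower in deficient cells, at 7.55 to 7.87 against 8.01 to 8.03. The part of proliferation and of these markers in the members' difference was not tested.

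**Figure D5:**
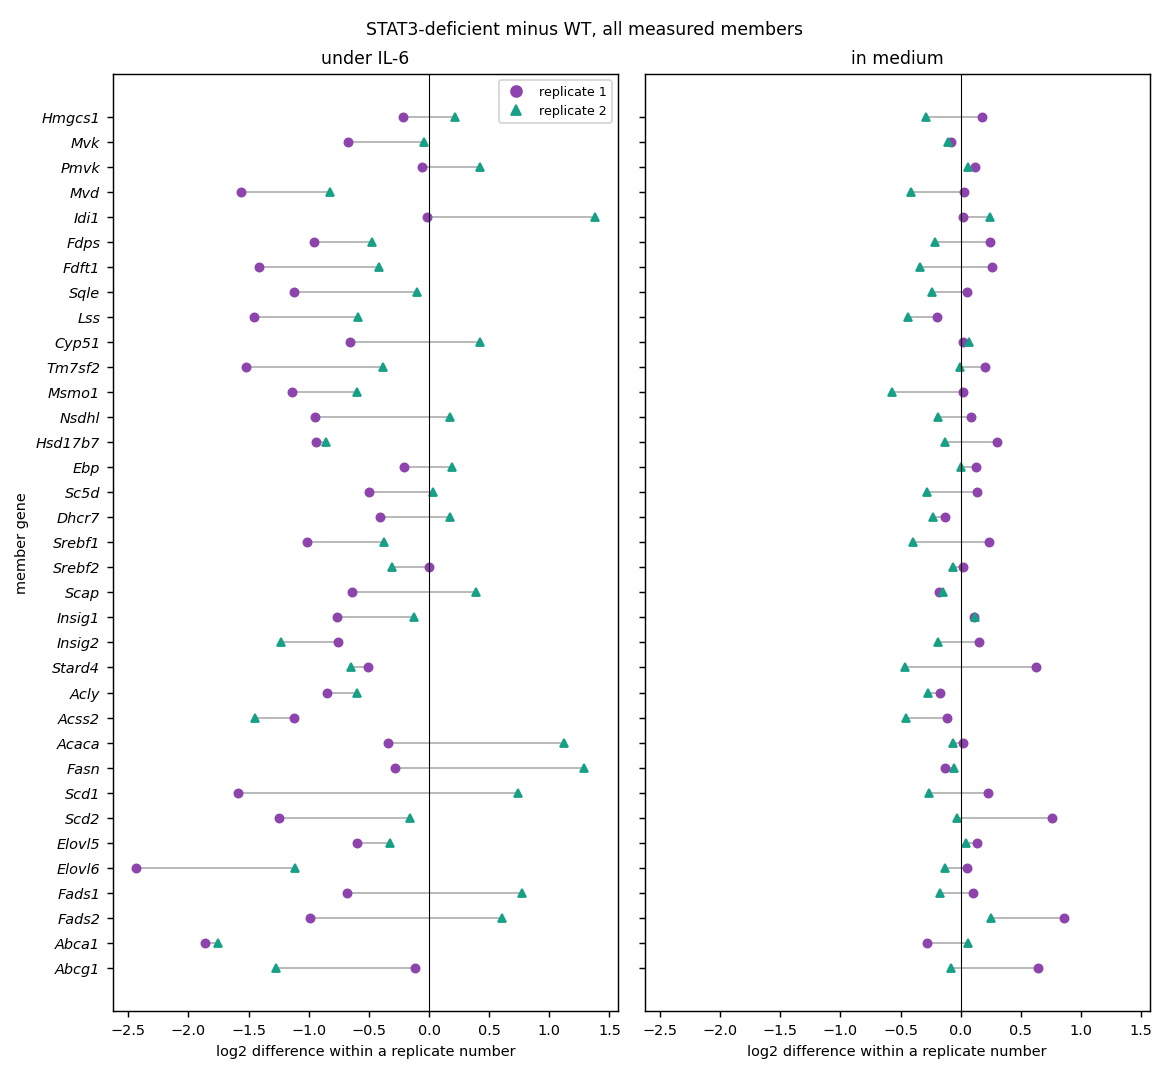
STAT3-deficient minus WT (log2, horizontal axis) for the 35 measured members under IL-6 (left) and in medium (right). Each line joins the difference within replicate 1 (circle) and within replicate 2 (triangle). Under IL-6, 20 members lie below 0 in both pairs, and in medium the mean differences lie between -0.32 and 0.55.

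In medium the genotypes differed little. The members' mean differences ran from -0.32 to 0.55 with a median of -0.03, and 0 were called by limma (background 0%). No member and 17 genes in all reached an unadjusted p under 0.05. Under TGFb, 32 of 35 members were lower in deficient cells with a median of -0.47, and again 0 were called by limma (background 0%). No member reached an unadjusted p under 0.05, against 0.684% of all genes. The difference lay in the first pair, with a median of -0.88 in replicate 1 and 0.02 in replicate 2. Replicate 1 holds the array with the high Il17a, and replicate 2 the deficient array with the highest Stat3 (10.46).

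With both cytokines, 27 of 35 members were higher in deficient cells with a median of 0.17, and 11 of 17 enzymes were higher in both pairs (37.1% of all genes were). The deficient replicate 1 array here is the one with which the array with the high Il17a correlated best. Relative to each enzyme's mean over the 16 arrays, the enzymes averaged 0.08 on it and -0.07 on its WT counterpart. On the array with the high Il17a they averaged -0.73, and an exchange of the 2 labels was not tested. No member was called by limma (background 1.19%), and 1, Idi1, reached an unadjusted p under 0.05 (2.86%, against 10.1% of all genes). It read 11.12 and 10.81 in WT and 11.76 and 11.95 in deficient cells, a difference of 0.89 (SE 0.38, adjusted p = 0.46). All 16 proliferation genes were higher in deficient cells there, with a median of 0.51, and their part in the members' difference was not tested. Over the mean of the 4 conditions 0 members were called (background 0.969%) and 3 were lower at an unadjusted p under 0.05 (8.57%, against 15.9% of all genes). With the block 2 members fell (background 5.36%), Acss2 by 0.58 (adjusted p = 0.0135) and Insig2 by 0.52 (adjusted p = 0.0461). Without deficient TGFb replicate 2 and with no block, the 1 member called was Acly, the ATP citrate lyase gene, at -0.50 (adjusted p = 0.0415).

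Against medium, no cytokine condition gave a called member without the block (limma), and these comparisons share their medium arrays. In WT cells the background was 0.284% for IL-6, 0.223% for TGFb and 3% for both cytokines, and in deficient cells 0%, 0.354% and 0.138%. At an unadjusted p under 0.05 the counts of members were 0, 4 and 1 in WT cells, against 12.6%, 10.8% and 16.2% of all genes. In deficient cells they were 0, 2 and 3, against 1.33%, 12.4% and 5.98%. As shares of the 35 members, 4 is 11.4%, 3 is 8.57%, 2 is 5.71% and 1 is 2.86%. In WT cells 31 of 35 members were higher under TGFb with a median of 0.47, of which 0.92 in replicate 1 and 0.08 in replicate 2. Under IL-6 25 were higher with a median of 0.49, of which 0.95 in replicate 1 and -0.22 in replicate 2. The first pair is the one in which the medium array read these genes low.

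Abcg1 had the lowest p of the members in WT cells with both cytokines and with TGFb alone. It read 7.70 and 8.74 in medium and 9.13 and 10.32 with both cytokines, a difference of 1.51 (SE 0.48, adjusted p = 0.132), which passed with the block (adjusted p = 0.028, 1 of 35 members, background 6.4%). In deficient TGFb, Abca1 differed from medium by 2.24 (SE 0.83, adjusted p = 0.295). Its 2 TGFb arrays read 9.84 and 6.70, and with the array at 6.70 left out the difference was 3.81 (adjusted p = 0.0185). Among the wider lists, Pltp rose by 2.33 (adjusted p = 0.0127) and Npc1 by 1.19 (adjusted p = 0.04) in WT cells with both cytokines, while Decr1 fell by 1.70 (adjusted p = 0.0272) and Cdk1 by 1.08 (adjusted p = 0.0329). Each was the only gene called in its list, of 5, 11, 11 and 16 genes tested, against 3% of all genes. Averaged over TGFb, IL-6 gave 0 called members in WT (background 1.63%) and in deficient cells (0%), and 0 for their difference (0.354%). At an unadjusted p under 0.05 these were 0, 0 and 1 member, against 12.6%, 4.44% and 12.1% of all genes.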

How the data were processed

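Members and gene lists were chosen with earlier results of these data known. Per the labels' protocols, a MirVana kit was used for total RNA and a MessageAmpII kit for biotin labelling. Per the submitters' processing notes, the authors used RMA, in a version not given in the sources used here. Its deposited output was linear intensity, in whole numbers from 6 to 37243 (100% of values). How RMA values became linear is not given. The authors' normalization was kept (array medians 66 to 73). Precision is limited by the number of arrays.

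Groups and replicate numbers came from the labels. Log2 was taken with no pseudocount. Of 45101 probe sets, 34945 had 1 symbol, 932 several, 9160 none and 64 were controls. They named 18193 genes, each read from its brightest probe set, and 13007 reached log2 6 on at least 2 arrays. No detection calls were used.

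All 16 arrays were fitted in limma 3.58.1 (R 4.3.3) with a mean per group, so that the 8 groups share 1 spread (8 residual degrees of freedom). Tests were two-sided, with Benjamini-Hochberg adjustment over 13007 genes in each comparison. The threshold for a call was an adjusted p of 0.05. Of the 18 comparisons 3, those on IL-6 added to TGFb, were added after the values were seen. Deviations of same-numbered arrays from their group means correlated at 0.107 to 0.863 (28 pairs of groups), so the numbers pair the samples, a pairing that comes from the titles. The main fit does not use this pairing, so its SEs hold the difference between the replicate numbers. The block takes out only the part of it that is the same in all 8 groups. It left the SEs of Mvd (0.34), Abca1 (0.42) and Sc5d (0.16) about as they were, while more of all genes were called. For deficient against WT cells under IL-6, 3.29% of all genes were called in the main fit and 11.5% with the block.

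Per-array values are given for members called in any comparison, with or without the block, and for those with the largest changes in each role. Of each wider list, up to 4 called genes are named. Per-array values of Srebf2, Idi1, Insig1 and Stard4 were chosen after their values were seen. Alternatives were the block, the block with the Actb measure, quantile normalization, no filter or one at log2 7, the mean of all probe sets, array weights, and arrays left out. The code was tested on simulated data. Figures used matplotlib 3.10.9 under Python 3.11.15.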

Additional observations from a re-analysis of the deposited data

How the results depend on the processing

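Of 432 alternative counts of called members over 18 comparisons, 415 stayed within 1.5 times of the reported count. In every comparison but TGFb against its absence the reported count was 0, and a 0 that stayed 0 is among the 415. The 415 thus says little of how stable the calls are. For TGFb against its absence (2 members), the count was 4 with the replicate block, 1 without both STAT3-deficient replicate 1 arrays that held TGFb, and 1 to 4 with 1 array left out. It was 4 without deficient TGFb replicate 1, and 1 without replicate 1 of deficient both, WT TGFb or WT medium, or without deficient medium replicate 2. For deficient against WT cells under IL-6 (0 members), it was 4 with the block, 1 with the block and the Actb measure, and 0 to 1 with 1 array left out, the 1 being Acss2 when either deficient TGFb array was left out. Over the mean of the 4 conditions it was 2 with the block and 0 to 1 with 1 array left out. Against medium in WT cells, it was 1 (Abcg1) for TGFb with the block and the Actb measure, and 1 (Abcg1) for both cytokines with the block and also with the Actb measure added. For TGFb against medium in deficient cells it was 0 to 1 with 1 array left out. In 14 comparisons, those against medium in WT cells among them, the count stayed 0 to 0 whichever array was left out. The block changed no other count. Leaving out an array leaves a group of 1, which is assumed to vary like the others. The deficient TGFb arrays are not in the comparison under IL-6. Leaving 1 of them out changed the shared spread and not the Acss2 difference, which stayed at -1.29. The cause of the other shifts was not tested. Signal over background limits the dim members: Abca1, Fads2 and Scd1 read under log2 6.5 on some arrays.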
